A study of Mus musculus with 24 samples.

Results

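The SLC25 family of mitochondrial carriers was followed across 4 genotype groups of mouse cerebellum. The set was taken by symbol: every protein-coding gene of the deposited counts whose mouse symbol starts with Slc25a, except Slc25a11, Slc25a12, Slc25a13 and Slc25a22, with a mean level of 1 CPM or more over the 24 libraries (CPM are counts scaled to a common library size). Of 43 genes that meet the symbol rule, 37 reached that level, out of 43430 genes counted. The rule uses symbol and level and no difference between genotypes, but it was set with earlier results of these data known.

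SLC25 carriers are nuclear-encoded proteins of the inner mitochondrial membrane that exchange nucleotides, phosphate, organic acids, amino acids, cofactors and metal ions between the cytosol and the matrix. Oxidative phosphorylation depends on them: ATP leaves the matrix in exchange for ADP, phosphate enters, and reducing power crosses as organic and amino acids because NADH itself does not cross. A few members work elsewhere, among them Slc25a46 of the outer membrane and Slc25a17 of the peroxisome.

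The groups were cKO (a conditional knockout that impairs complex I of the respiratory chain in the brain), cKO+NDI1 (the same knockout with NDI1, the single-subunit yeast NADH dehydrogenase, which regenerates NAD+ without pumping protons), an NDI1 control, and a Cre control. Each held 6 mice, 3 male and 3 female, aged 7 weeks, and each library was made from polyA-selected RNA of whole cerebellum. The labels do not name the targeted gene, the Cre driver, the floxed alleles or whether the NDI1 control animals carry Cre. The study asks what the loss of complex I does to this tissue and what returns when NAD+ is regenerated without the rest of the complex.

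Library totals ran from 8665396 to 15901824 counts in cKO, 7584374 to 19785264 in cKO+NDI1, 14180056 to 17302266 in the NDI1 control and 13594761 to 18287435 in the Cre control, and the shallowest libraries were in the knockout groups. Ndufs4, the complex I subunit known from the published study as the target, was at 67.1, 93.0 and 133 CPM (lowest, median, highest of 6) in cKO, 77.1, 99.99 and 120 CPM in cKO+NDI1, 106, 123 and 199 CPM in the NDI1 control, and 104, 140 and 164 CPM in the Cre control. Its log2 fold change in cKO against the Cre control was -0.47 ± 0.16 (SE; adjusted p = 0.094), and the groups overlapped. These counts cover the whole gene, also exons outside any deleted part, so they check the labels only loosely. Summed markers of granule neurons (4059 to 4262 CPM in cKO, 4049 to 4640 CPM in the Cre control) and Purkinje cells (8863 to 9491 CPM in cKO, 9937 to 10400 CPM in the Cre control) were high in every library. The Purkinje sum was lower in all cKO libraries than in all Cre control libraries, with 0 of its 5 markers called. Of single genes tested, 2.69% also had no overlap between these 2 groups. The largest markers in the sum were Car8 (median 3405 CPM) and Itpr1 (median 2460 CPM). Ucp1 and Alb together stayed at 3.82 CPM or less.

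The adenine nucleotide and phosphate carriers dominated the family. Slc25a4 (Ant1), which exchanges ADP for ATP, averaged 1179 CPM over the 24 libraries. Slc25a3, the phosphate carrier, averaged 543 CPM, and Slc25a5 (Ant2), the second ADP/ATP carrier, 328 CPM. Together these 3 genes held 57.6% of the family's counts on average (54.1% to 61.1% between libraries), while the whole family held 0.355% of all counts (0.313% to 0.395%). Slc25a23, a calcium-regulated ATP-Mg/phosphate carrier, was the only other member at 100 CPM or more; 26 members lay between 10 and 100 CPM and 7 between 1 and 10 CPM.

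Levels can be compared between genes only per length of transcript. In CPM per kilobase of exon the order began with Slc25a4 (501), Slc25a5 (199.5) and Slc25a3 (97.8), followed by the glutamate carrier Slc25a18 (57.3), the pyrimidine nucleotide carrier Slc25a33 (49.0) and Slc25a23 (43.9). The first 2 places did not depend on the length used. With the deposited length column Slc25a3 took place 5 and Slc25a18 place 3, and with the whole exon union of the annotation Slc25a18 took place 6, so the order from place 3 on is not settled. At the other end Slc25a21, the oxodicarboxylate carrier, was at 0.285 CPM per kilobase and last under every length tried.

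**Figure D1:**
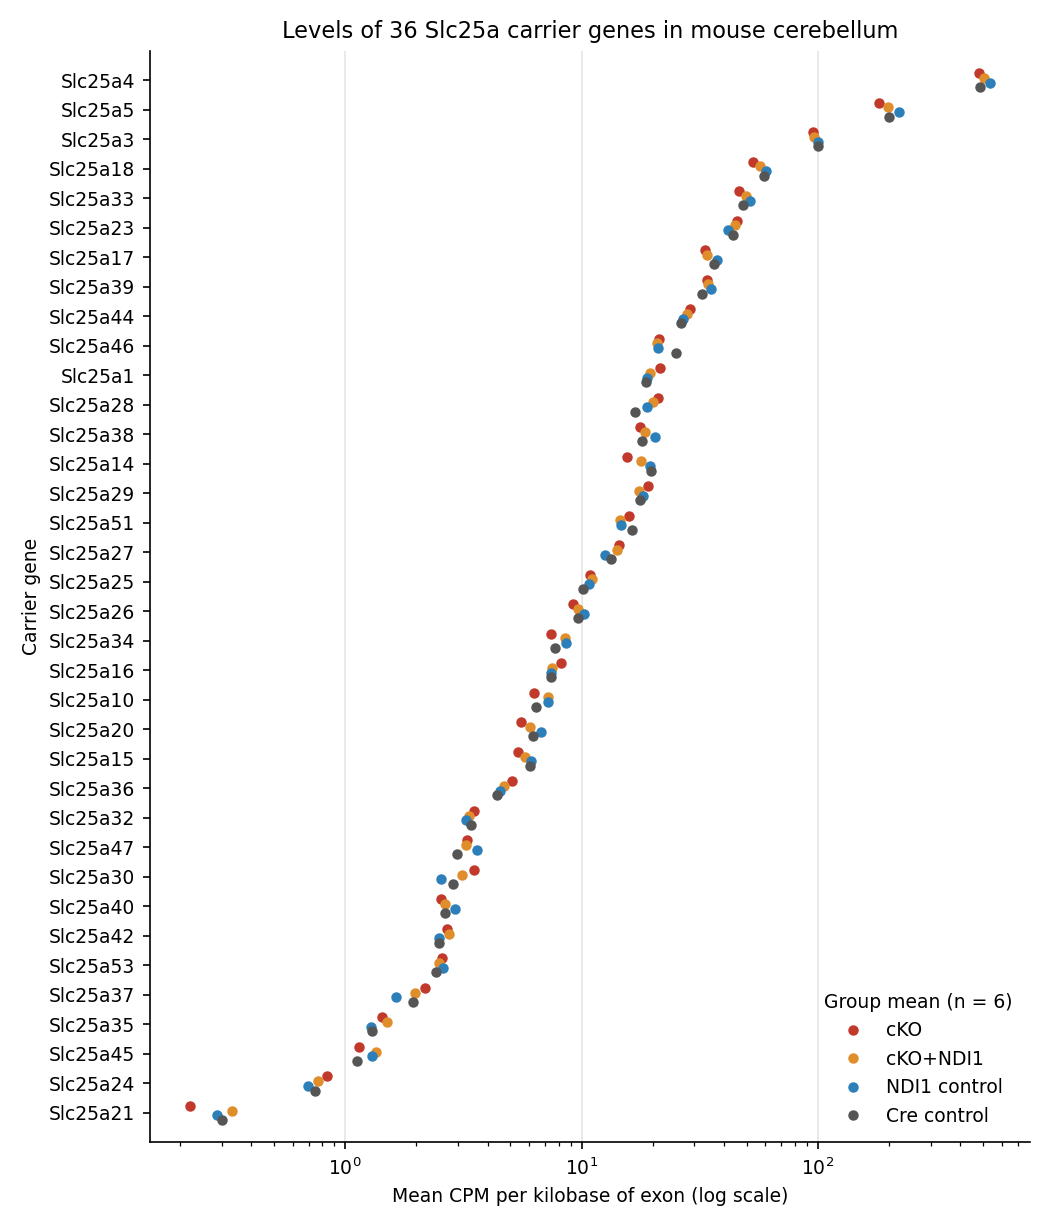
Mean CPM per kilobase of exon (log scale) of 36 of the 37 carrier genes, each point the mean of 6 libraries of one genotype group. The 4 groups lie close together for every gene, while the genes span 0.285 (Slc25a21) to 501 (Slc25a4) CPM per kilobase.

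The role groups covered this range unevenly. Among cofactor and nucleotide carriers, Slc25a17 (35.2 CPM per kilobase), which serves the peroxisome, and the glutathione carrier Slc25a39 (33.97) were above the NAD+ carrier Slc25a51 (15.3). Among amino acid carriers the branched-chain amino acid carrier Slc25a44 (27.5), the glycine carrier Slc25a38 (18.7) and the basic amino acid carrier Slc25a29 (18.1) followed Slc25a18. The citrate carrier Slc25a1 (19.6 CPM per kilobase) led the organic acid carriers, ahead of Slc25a34 (8.04) and the dicarboxylate carrier Slc25a10 (6.78). With the deposited length column Slc25a1 (8.37) and Slc25a34 (8.04) lay close together. Several of these places change with the length used: with the deposited length column Slc25a39 took place 18, below Slc25a51 at place 17, so the order of those carriers is not settled.

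Just above the limit of 1 CPM stood Slc25a21 (1.39 CPM), Slc25a24 (2.61 CPM) and Slc25a45 (3.40 CPM). The 6 genes below it were Slc25a2 (0.292 CPM), Slc25a48 (0.208 CPM), Slc25a31 (0.108 CPM), Slc25a41 (0.0973 CPM), Slc25a43 (0.0685 CPM) and Slc25a54 (0.00327 CPM). All 37 members passed the filter on low counts and were tested.

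Members differed widely in how tightly mice of one group agreed. The coefficient of variation within a group, averaged over the 4 groups, was 4.22% for Slc25a3, 4.25% for the coenzyme A carrier Slc25a16 and 5.46% for Slc25a51. It was 23.6% for Slc25a45, 22.99% for Slc25a21 and 19.97% for Slc25a47, all in the class under 10 CPM. Some carriers of higher level also varied more than others near them in level. Slc25a38 had 18.98% at 51.4 CPM, against 8.07% for Slc25a29 at 47.1 CPM. Slc25a33 had 16.1% at 92.5 CPM, against 11.4% for Slc25a39 at 93.6 CPM and 5.56% for Slc25a46 at 96.5 CPM. Of the exon bases of Slc25a33 14.9% are shared with an antisense gene, Gm13068. Whether reads were counted by strand is not given in the sources used here, so that gene may add to its counts.

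Ratios of counts between paired isoforms compare the groups, but they are not corrected for length, so their size is not a ratio of levels. Per kilobase of exon Slc25a4 and Slc25a5 were at 501 and 199.5 CPM, and Slc25a39 and Slc25a40 at 33.97 and 2.68 CPM. Counts of Slc25a4 were 3.81 ± 0.18 times those of Slc25a5 in cKO, 3.64 ± 0.19 in cKO+NDI1, 3.46 ± 0.23 in the NDI1 control and 3.47 ± 0.06 in the Cre control (mean ± SD, n = 6 each). All 6 cKO ratios (3.63 to 4.14) were above all 6 Cre control ratios (3.42 to 3.57); this was noticed after the values were seen and has no test. The glutathione carriers Slc25a39 and Slc25a40 stood at 6.89 ± 0.74 in cKO, 6.76 ± 0.74 in cKO+NDI1, 6.32 ± 0.88 in the NDI1 control and 6.39 ± 0.56 in the Cre control, with wide overlap.

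The comparison of cKO with the Cre control asks how the family differs between these 2 groups. Of the 37 carriers 2 were called. Slc25a28 (mitoferrin 2), which imports iron into mitochondria, was 1.25-fold higher in cKO. Slc25a46, an outer-membrane protein of mitochondrial dynamics and lipid transfer, was at 0.85 of its Cre control level. The NDI1 control, not labelled as a knockout, had log2 fold changes against the Cre control of 0.17 for Slc25a28 and -0.25 for Slc25a46. Since the labels do not give the floxed alleles, the knockout and other differences between the groups cannot be told apart here. The test was edgeR's quasi-likelihood test with Benjamini-Hochberg adjustment over all 15300 genes tested, at an adjusted p under 0.05. The 2 called are 5.41% of the family, against 4.87% of all genes tested, a share close to the background. The count depends on the fit: with 1 surrogate variable 11 of 37 carriers and 3185 of 15300 genes were called, and with the compared groups only 0 carriers and 263 genes. At an unadjusted p under 0.05 stood 11 carriers, 6 higher and 5 lower (29.7%, against 18.5% of all genes). The median absolute log2 fold change was 0.124 for the carriers and 0.115 for all genes tested.

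Slc25a28 lies on chromosome 19 (mm10, chr19:43663822-43674881, minus strand). It was at 27.7, 31.6 and 36.1 CPM (lowest, median, highest) in cKO, 27.5, 30.4 and 33.3 CPM in cKO+NDI1, 25.3, 28.5 and 31.1 CPM in the NDI1 control and 23.8, 25.6 and 26.9 CPM in the Cre control. All cKO libraries were above all Cre control libraries, as were all cKO+NDI1 libraries, and 17 of the 18 libraries outside the Cre control exceeded its highest library. Groups of 6 against 6 without overlap were found for 2.69% of all genes tested in cKO against the Cre control. The log2 fold change there was 0.32 ± 0.07 (SE; adjusted p = 0.0095), and it stayed past the threshold without any one of the 24 libraries (0.27 to 0.35, adjusted p 0.0051 to 0.028).

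The promoter of Slc25a28 is shown because this was the only carrier called higher. The window, from RefSeq on GRCm38.p6 (chr19:43674832-43675131, minus strand), holds 250 bases before the transcription start and 50 after it. Capitals mark CCAAT boxes (CCAAT or ATTGG) and GC boxes (GGGCGG or CCGCCC).
Slc25a28: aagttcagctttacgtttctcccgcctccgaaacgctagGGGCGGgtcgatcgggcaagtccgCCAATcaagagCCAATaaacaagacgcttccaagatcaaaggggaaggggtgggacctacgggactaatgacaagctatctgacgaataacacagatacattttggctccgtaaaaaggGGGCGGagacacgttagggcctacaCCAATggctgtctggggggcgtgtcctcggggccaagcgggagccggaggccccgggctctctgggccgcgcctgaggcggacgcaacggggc
It holds 3 CCAAT boxes and 2 GC boxes, with no overlap between them, and 24 CpG dinucleotides, against a median of 16.5 in the windows of carrier genes and 7 in all windows. A window was found for 28 of the 37 carriers (36 windows in all). Both strands were searched: a CCAAT box was in 52.8% of carrier windows and 37.4% of the 32851 windows of all genes, and a GC box in 86.1% and 35.7%. Carriers were chosen at 1 CPM or more, while the windows of all genes were not limited by level. The median GC content was 60.3% in carrier windows and 52.7% in all windows. The part of level and GC content in these shares was not tested. The letters of an ETS site (CCGGAAG or CTTCCGG) were in 16.7% of carrier windows and 8.86% of all windows, and those of a cAMP response element (TGACGTCA) in 5.56% and 1.79%. Slc25a28 held neither of these. A match of letters is a description of the window and says nothing of what binds there.

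The other mitoferrin, Slc25a37, was at 11.9, 13.03 and 14.6 CPM in cKO, 9.57, 12.1 and 13.6 CPM in cKO+NDI1, 7.68, 9.90 and 13.03 CPM in the NDI1 control and 9.58, 11.6 and 13.9 CPM in the Cre control, with all groups overlapping. Its log2 fold change in cKO against the Cre control was 0.17 ± 0.11 (adjusted p = 0.45). Slc25a28 counts were 2.46 ± 0.37 times those of Slc25a37 in cKO, 2.62 ± 0.46 in cKO+NDI1, 3.01 ± 0.73 in the NDI1 control and 2.23 ± 0.38 in the Cre control (SD, n = 6 each).

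Slc25a46 (chr18:31580168-31609902, minus strand) was at 88.5, 93.1 and 97.4 CPM in cKO, 83.8, 89.0 and 99.5 CPM in cKO+NDI1, 87.2, 91.9 and 99.6 CPM in the NDI1 control and 93.1, 112 and 116 CPM in the Cre control. Of the Cre control libraries 5 (109 to 116 CPM) were above all 18 libraries of the other groups, and Cre control replicate M1, at 93.1 CPM, lay among them. The log2 fold change in cKO was -0.24 ± 0.06 (adjusted p = 0.017), and the call held without any one library (-0.29 to -0.22, adjusted p 0.0032 to 0.049). Of its exon bases 7.1% are shared with a gene on the opposite strand, B930094E09Rik, and whether reads were counted by strand is not given in the sources used here. In cKO against the Cre control alone, without the other 2 groups in the fit, neither carrier passed (adjusted p = 0.062 for Slc25a28 and 0.097 for Slc25a46), and with every library thinned to the depth of the smallest Slc25a46 did not (adjusted p = 0.084).

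**Figure D2:**
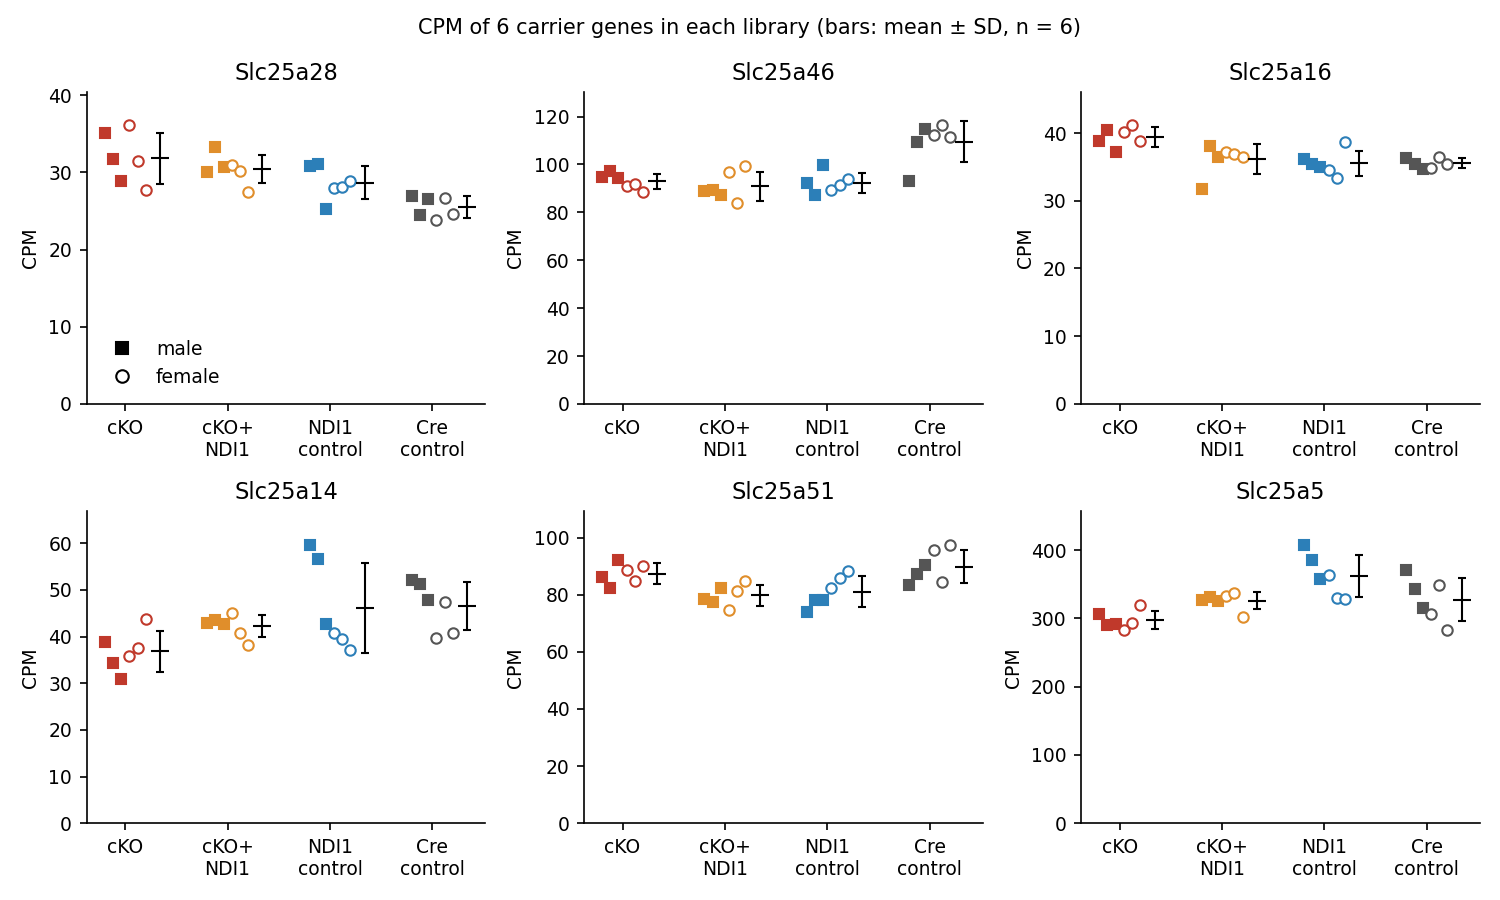
CPM in each library for 6 carriers, males as squares and females as open circles, with the mean ± SD of 6 libraries beside each group. Slc25a28 is low and Slc25a46 high in the Cre control relative to the other 3 groups, apart from 1 Cre control library of Slc25a46 at 93.1 CPM.

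The uncoupling-protein-like carriers had none called of 3, against 4.87% of all genes tested. At that share, no call in so small a group is no result about the group, here and for the role groups below. Slc25a14 (Ucp5) was at 30.9, 36.7 and 43.8 CPM in cKO, against 39.7, 47.6 and 52.1 CPM in the Cre control, with overlap (log2 -0.33 ± 0.10, adjusted p = 0.064 by edgeR and 0.030 by DESeq2). It passed by edgeR without NDI1 control M1 (adjusted p = 0.038), NDI1 control M2 (0.046) or cKO F3 (0.017). Slc25a30 was at 5.03, 6.14 and 6.75 CPM in cKO, against 4.53, 4.85 and 5.31 CPM in the Cre control (0.29 ± 0.10, adjusted p = 0.11). Slc25a27 (Ucp4), expressed in neurons, had 0.11 ± 0.06 (adjusted p = 0.33).

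The ADP/ATP and phosphate carriers had none of 6 called, against 4.87% of all genes tested, with log2 fold changes from -0.14 to 0.18. Slc25a4 was at 1061, 1120 and 1215 CPM in cKO, against 967, 1147 and 1301 CPM in the Cre control (log2 0.00 ± 0.08). Slc25a3 was at 504, 529 and 547 CPM in cKO, against 485, 558 and 617 CPM (-0.07 ± 0.05), and Slc25a5 at 284, 293 and 319 CPM in cKO, against 283, 329 and 370 CPM in the Cre control (-0.14 ± 0.06, adjusted p = 0.22). The 95% interval of Slc25a4 ran from -0.16 to 0.15 and that of Slc25a3 from -0.17 to 0.03, so a change of 0.25 on the log2 scale is outside both intervals.

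The cofactor carriers also held no call among 11 genes, against 4.87% of all genes tested (median log2 0.052, range -0.12 to 0.21). Slc25a16 was at 37.2, 39.5 and 41.1 CPM in cKO, against 34.7, 35.4 and 36.4 CPM in the Cre control. The groups did not overlap, but the difference was small (0.15 ± 0.05, adjusted p = 0.10). Of the 37 carriers 2 had no overlap here, Slc25a28 and Slc25a16, as did 2.69% of all genes tested. Slc25a51, which brings NAD+ into the matrix, was at 82.3, 87.4 and 92.3 CPM in cKO, against 83.5, 88.8 and 97.6 CPM in the Cre control (-0.04 ± 0.05, interval -0.14 to 0.06). The pyrimidine nucleotide carriers had 0.21 ± 0.09 for Slc25a36 (adjusted p = 0.17) and -0.03 ± 0.13 for Slc25a33.

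Organic acid carriers had none of 5 called and amino acid carriers none of 8, against 4.87% of all genes tested. Their log2 fold changes ran from -0.43 to 0.21 and from -0.16 to 0.14, respectively. The citrate carrier Slc25a1 was at 40.0, 46.2 and 53.0 CPM in cKO, against 34.7, 41.2 and 44.5 CPM in the Cre control (0.21 ± 0.08, adjusted p = 0.12, and 0.041 without cKO M2). Slc25a21 had the lowest log2 fold change of the family (-0.43 ± 0.21, adjusted p = 0.28), on 5 to 18 counts a library in cKO and 14 to 28 in the Cre control. Slc25a18 was at 65.6, 72.7 and 79.0 CPM in cKO, against 72.1, 83.2 and 88.4 CPM in the Cre control (-0.15 ± 0.07, adjusted p = 0.27); the summed astrocyte and Bergmann glia markers were at 6841, 7035 and 7769 CPM in cKO, against 7474, 7679 and 8471 CPM in the Cre control, with 2 of 8 called lower, and their part in any carrier's value was not tested. The largest genes in the astrocyte and Bergmann glia sum were Aldoc (median 2902 CPM) and Slc1a3 (median 1971 CPM). Whether that sum follows glia alone was not tested. In whole tissue, fewer cells of a type and less RNA per cell cannot be told apart. Of 4 pericyte and smooth muscle markers 3 were called higher, at 278 to 307 CPM summed in cKO, against 214 to 257 CPM in the Cre control. Of 7 oligodendrocyte markers 1 was called higher (11050 to 17470 CPM summed in cKO, 11690 to 13590 CPM in the Cre control), as was 1 of 6 endothelial markers (209.5 to 276 CPM in cKO, 187 to 226 CPM in the Cre control). The part of these cells and of the lower Purkinje sum in the carriers' values, Slc25a28 and Slc25a46 included, was not tested.

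**Figure D3:**
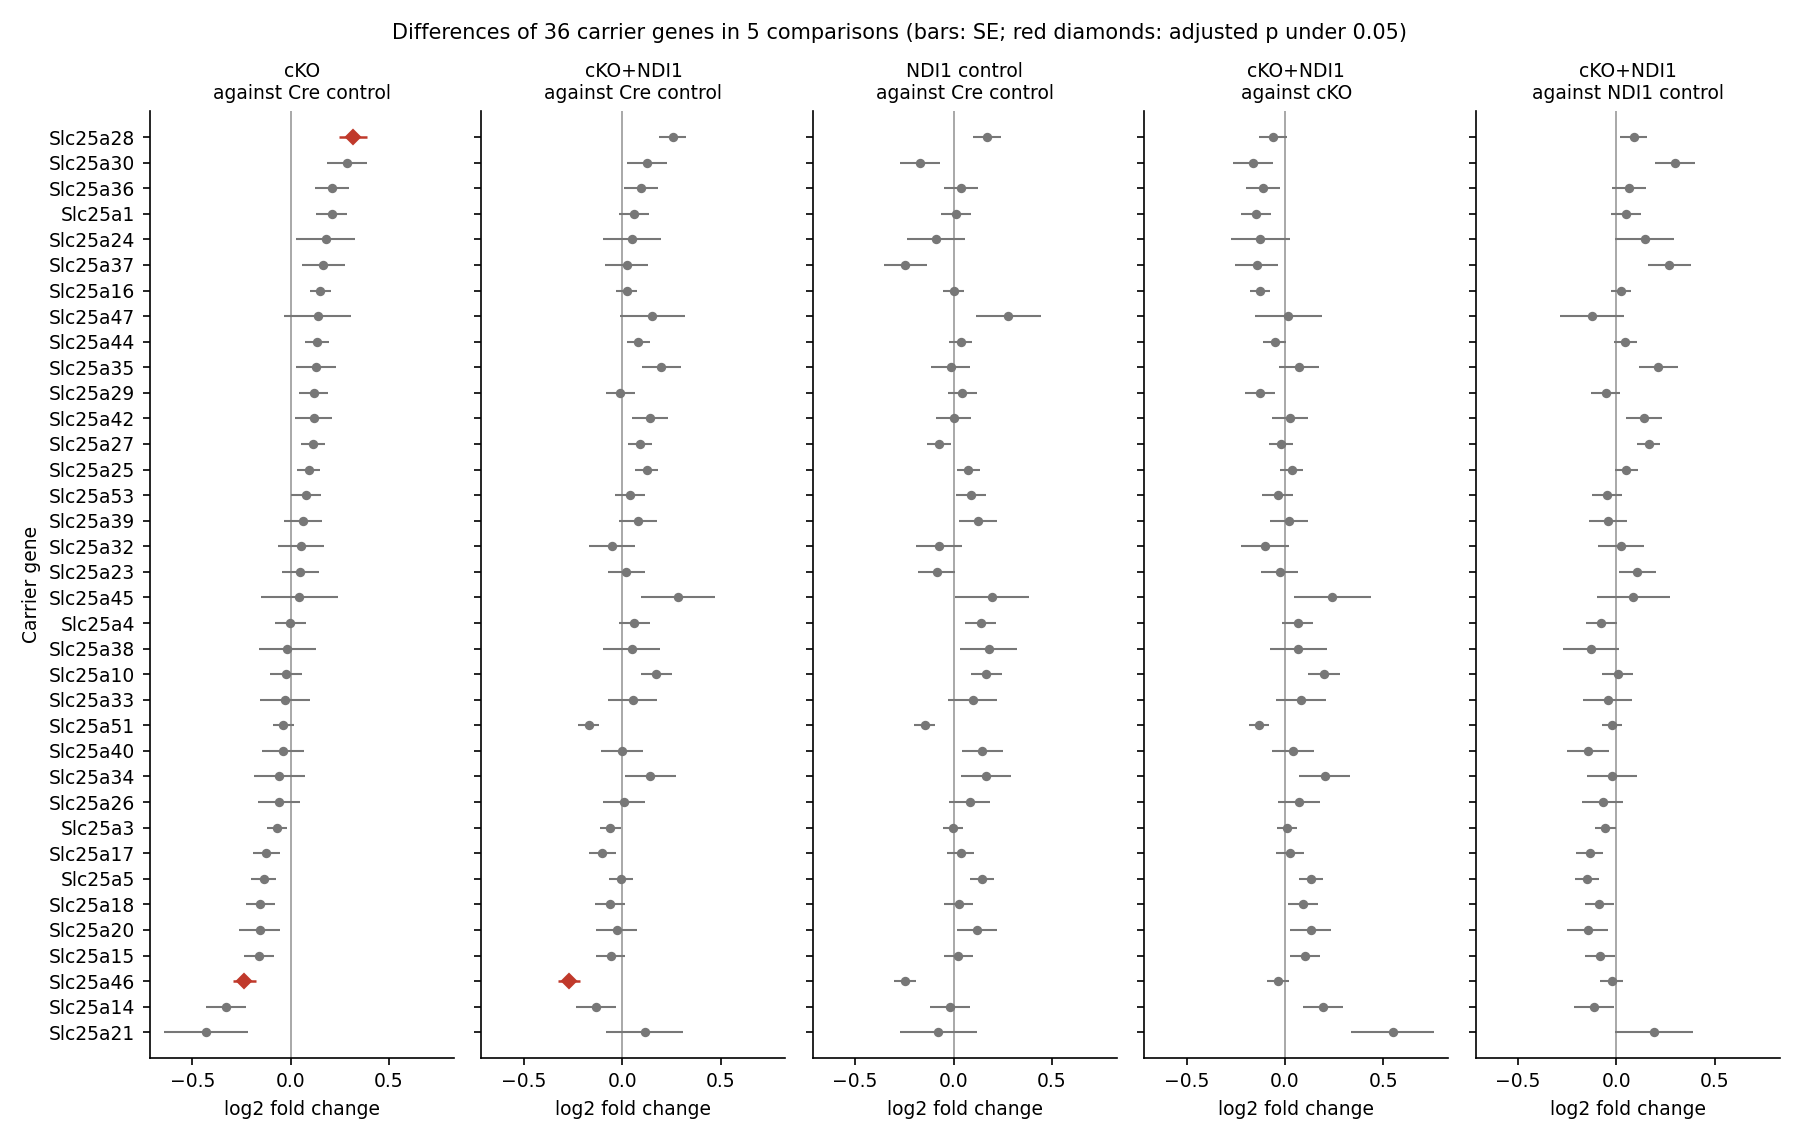
Log2 fold change of 36 of the 37 carrier genes in 5 comparisons, with bars of 1 SE and red diamonds at an adjusted p under 0.05, ordered by cKO against the Cre control. Slc25a28 (0.32) and Slc25a46 (-0.24) are the called genes in the first panel and Slc25a46 (-0.27) in the second; the other 3 panels hold none.

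The comparison of cKO+NDI1 with cKO asks whether NDI1 moves the carriers in knockout tissue. None of the 37 passed by edgeR, against 0.209% of all genes, and none by DESeq2 or limma-voom; 5 had an unadjusted p under 0.05 (13.5%, against 8.56% of all genes). Slc25a28 differed by -0.06 ± 0.07 (interval -0.20 to 0.08) and Slc25a46 by -0.04 ± 0.06 (interval -0.15 to 0.08). Slc25a51 was at 74.7, 79.8 and 84.8 CPM in cKO+NDI1, against 82.3, 87.4 and 92.3 CPM in cKO (-0.13 ± 0.05, adjusted p = 0.44), with overlap. Summed oligodendrocyte markers were at 8632 to 10590 CPM in cKO+NDI1, against 11050 to 17470 CPM in cKO, with 4 of 7 called lower, and their part in this value was not tested. Slc25a5 had 303, 329 and 337 CPM in cKO+NDI1, against 284, 293 and 319 CPM in cKO (0.13 ± 0.06, adjusted p = 0.55).

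The highest and lowest values in that comparison belonged to Slc25a21 and Slc25a30, which are scarce. Slc25a21 was at 0.852, 1.64 and 2.12 CPM in cKO+NDI1, against 0.570, 1.149 and 1.42 CPM in cKO (0.55 ± 0.21, adjusted p = 0.42). Slc25a45 was at 0.24 ± 0.19 on the log2 scale and Slc25a30 at -0.16 ± 0.10. Slc25a1 was at 35.8, 42.1 and 47.0 CPM in cKO+NDI1, against 40.0, 46.2 and 53.0 CPM in cKO (-0.15 ± 0.08, adjusted p = 0.63). The dicarboxylate carrier Slc25a10 was at 22.6, 25.7 and 26.6 CPM in cKO+NDI1, against 19.6, 21.8 and 23.7 CPM in cKO (0.20 ± 0.08, adjusted p = 0.46).

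The comparison of cKO+NDI1 with the NDI1 control asks what the knockout does where NDI1 is present. Since the labels do not say whether NDI1 control mice carry Cre, the knockout and Cre cannot be told apart here. No carrier passed by edgeR, DESeq2 or limma-voom, and no gene of the 15300 did by edgeR (0%). At an unadjusted p under 0.05 stood 5 carriers (13.5%, against 4.48% of all genes), led by Slc25a30, at 4.68, 5.33 and 6.08 CPM in cKO+NDI1, against 3.30, 4.42 and 5.15 CPM in the NDI1 control (0.30 ± 0.10, adjusted p = 0.83). Slc25a37 had 0.27 ± 0.11, Slc25a5 -0.15 ± 0.06 and the carnitine/acylcarnitine carrier Slc25a20 -0.15 ± 0.10. Slc25a28 differed by 0.09 ± 0.07 and Slc25a46 by -0.02 ± 0.06.

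Against the Cre control, cKO+NDI1 had 1 carrier called, Slc25a46, which was lower (-0.27 ± 0.06, adjusted p = 0.025). That is 2.70% of the family, against 1.25% of all genes. The call was lost without any one of 9 libraries: Cre control M2, M3, F1, F2 or F3, or cKO+NDI1 M1, M2, M3 or F2, with adjusted p up to 0.083. Slc25a28 had 0.26 ± 0.07 (adjusted p = 0.066, and 0.044 without cKO F1) without overlap of the groups, which 1.58% of all genes also showed. Slc25a51 had -0.17 ± 0.05 (adjusted p = 0.11) at 74.7 to 84.8 CPM in cKO+NDI1, against 83.5 to 97.6 CPM in the Cre control. Summed oligodendrocyte markers were also lower, at 8632 to 10590 CPM in cKO+NDI1, against 11690 to 13590 CPM in the Cre control, with 3 of 7 called lower; their part in the Slc25a51 value was not tested. Slc25a45 was at 2.38, 3.99 and 4.32 CPM in cKO+NDI1, against 2.34, 3.29 and 3.88 CPM in the Cre control (0.28 ± 0.19).

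The NDI1 control was also set against the Cre control; since the labels do not say whether NDI1 control mice carry Cre, NDI1 and Cre cannot be told apart here. By edgeR no carrier passed and 1 gene of 15300 did (0.00654%); DESeq2 called 1 carrier, Slc25a46, and limma-voom none. An unadjusted p under 0.05 was found for 6 carriers (16.2%, against 9.20% of all genes). Slc25a46 had -0.25 ± 0.06 (adjusted p = 0.14, and 0.019 without Cre control M1), Slc25a28 0.17 ± 0.07 (adjusted p = 0.46) and Slc25a51 -0.15 ± 0.05 (adjusted p = 0.38). Slc25a51 was at 73.9, 80.3 and 88.3 CPM in the NDI1 control, against 83.5, 88.8 and 97.6 CPM in the Cre control. The oligodendrocyte sums were at 9133 to 11590 CPM in the NDI1 control, against 11690 to 13590 CPM in the Cre control, with 0 of 7 markers called, and their part was again not tested. Slc25a37 had -0.25 ± 0.11, Slc25a47 0.28 ± 0.17 and Slc25a45 0.20 ± 0.19.

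These comparisons share libraries: 3 of them have the same Cre control, so a high or low level there enters all 3. The values of Slc25a46 side by side against the Cre control were -0.24 (cKO), -0.27 (cKO+NDI1) and -0.25 (NDI1 control), and those of Slc25a28 were 0.32, 0.26 and 0.17 in the same order. In cKO+NDI1 against cKO and against the NDI1 control, both genes stayed within 0.09 log2 units of no difference. cKO was not tested against the NDI1 control, where Slc25a28 averaged 31.8 ± 3.30 CPM in cKO and 28.7 ± 2.13 CPM in the NDI1 control (SD, n = 6 each). What sets the Cre control apart at these genes was not tested.

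Whether NDI1 alters the difference of knockout from control was tested as an interaction. It is the log2 fold change of cKO+NDI1 over the NDI1 control minus that of cKO over the Cre control. Because the labels do not give Cre in the NDI1 control mice, Cre cannot be told apart in this value either. No carrier passed by edgeR, DESeq2 or limma-voom (0% of all genes by edgeR), and 3 had an unadjusted p under 0.05 (8.11%, against 5.18% of all genes). These were Slc25a28 (-0.23 ± 0.10, adjusted p = 0.92), Slc25a46 (0.21 ± 0.08, adjusted p = 0.85) and Slc25a21 (0.62 ± 0.29, adjusted p = 0.96). Slc25a14 had 0.21 ± 0.14 and Slc25a47 -0.26 ± 0.24. Whether the difference of cKO from the Cre control depends on NDI1 in Slc25a28 and Slc25a46 was not decided by this test. Both had an unadjusted p under 0.05 and neither was called, with SEs of 0.10 and 0.08. For the same genes the NDI1 control stood at 0.17 ± 0.07 and -0.25 ± 0.06 against the Cre control, neither called by edgeR. What sets these differences was not tested.

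**Figure D4:**
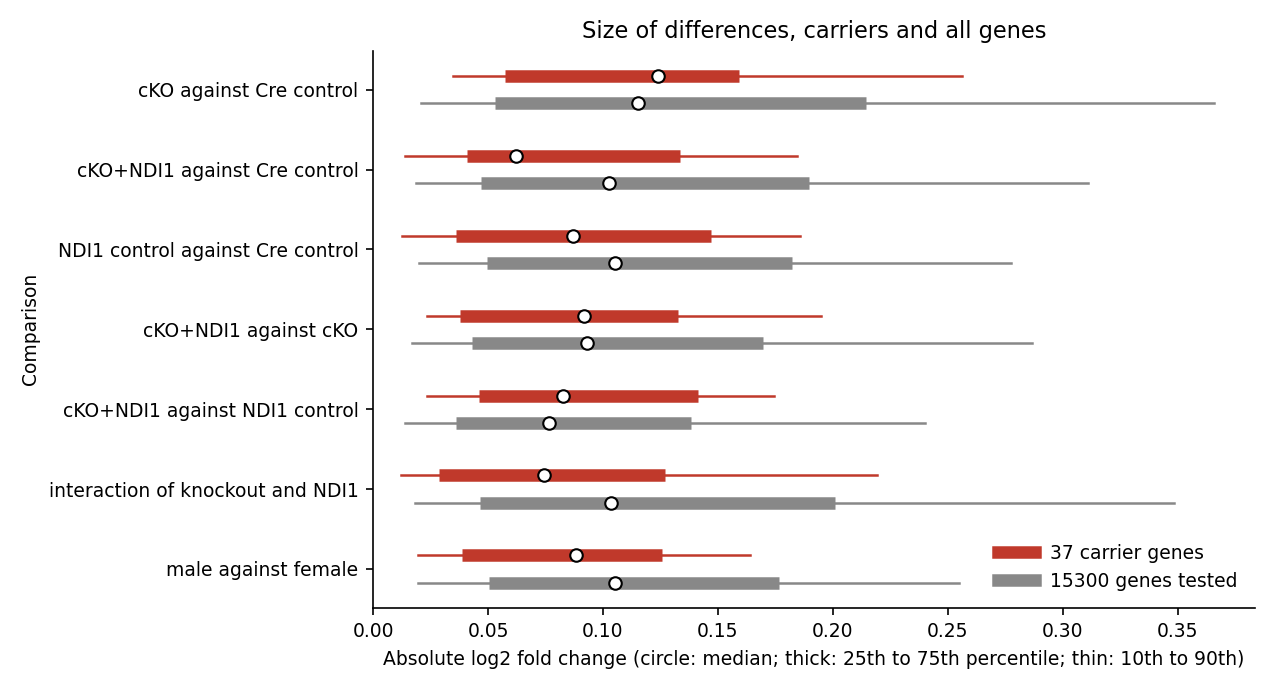
Absolute log2 fold changes of the 37 carriers (red) and of all 15300 genes tested (grey) in 7 comparisons, with the median as a circle and the 25th to 75th and 10th to 90th percentiles as bars. The carriers' medians run from 0.062 to 0.124 and those of all genes from 0.076 to 0.115.

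The precision bounds roughly what could have been missed, since the 95% intervals are somewhat narrow beside the F test used. In cKO against the Cre control the 95% interval of the log2 fold change lay within 0.5 on either side of no change for 35 of 37 carriers and within 1 for all 37. For cKO+NDI1 the same count was 35 of 37 with cKO as the other group, 36 with the NDI1 control and 36 with the Cre control. It was 35 for the NDI1 control against the Cre control and 32 for the interaction. Within 0.25 it was 9 of 37 in cKO against the Cre control, so smaller changes of most carriers were not resolved.

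Sex had no called carrier by edgeR, DESeq2 or limma-voom, against 0.0850% of all genes by edgeR, with 7 at an unadjusted p under 0.05 (18.9%, against 16.9% of all genes). Slc25a33 was at 70.4, 96.2 and 128 CPM in males and 66.7, 85.8 and 104 CPM in females (0.19 ± 0.09, adjusted p = 0.29, n = 12 each). Slc25a38 had 0.16 ± 0.10, Slc25a34 -0.20 ± 0.09 and Slc25a37 -0.19 ± 0.08 (male over female). The X-linked members were Slc25a5 (0.08 ± 0.04), Slc25a14 (0.14 ± 0.07) and Slc25a53 (0.07 ± 0.05).

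Within each sex the knockout comparison had the same direction as the whole for both called carriers, though in neither sex alone did they reach the threshold. Slc25a28 was at 28.9 to 35.1 CPM in cKO males, against 24.5 to 26.9 CPM in Cre control males (0.29, adjusted p = 0.18), and at 27.7 to 36.1 CPM in cKO females, against 23.8 to 26.7 CPM in Cre control females (0.33, adjusted p = 0.12). Slc25a46 was at 94.4 to 97.4 CPM in cKO males, against 93.1 to 115 CPM in Cre control males (-0.15, adjusted p = 0.35), and at 88.5 to 91.9 CPM in cKO females, against 112 to 116 CPM in Cre control females (-0.34, adjusted p = 0.054).

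Other proteins of mitochondrial transport gave the setting for these values. Of 9 carrier-family genes outside the symbol rule 8 were tested, and 1 was called in cKO against the Cre control, where 4.87% of all genes were. This was Ucp2, an uncoupling protein, at 88.9 ± 22.3 CPM in cKO, against 64.1 ± 9.23 CPM in the Cre control (SD, n = 6 each). Its log2 fold change was 0.47 ± 0.12 (adjusted p = 0.026). The lowest, median and highest values were 71.7, 83.3 and 133 CPM in cKO, against 54.8, 60.7 and 81.0 CPM, with overlap. Of 25 other transport proteins of the mitochondrial membranes 2 were called there, against the same 4.87% of all genes. Both are sideroflexins, a family that includes serine transporters of the inner membrane: Sfxn2 was higher, at 6.27 ± 1.51 CPM in cKO, against 4.48 ± 0.61 CPM in the Cre control (0.49 ± 0.14, adjusted p = 0.049), and Sfxn5 was lower, at 310 ± 16.8 CPM in cKO, against 366 ± 16.1 CPM in the Cre control (-0.24 ± 0.05, adjusted p = 0.0050). Neither list had a called gene in the other 6 comparisons. These 3 calls were not recomputed without single libraries.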

How the data were processed

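Messenger RNA of whole cerebellum was sequenced from 24 mice, 6 a group. The submitters' processing notes list mm10 as the build and, without versions, HTSeq, STAR, Trimmomatic and bcl2fastq. The authors deposited raw read counts per gene, whole numbers with no normalization; 15557 of 43430 genes were at 0 throughout and 0 per-library columns were left unused. Symbols and biotypes came from GENCODE M21 (42546 IDs matched; 33497 at identical coordinates). Groups, sexes and replicate numbers came from the labels. Each mouse is a separate animal per the labels, and no batch or date is given. No library was a copy of another in its group (over 60 pairs, the lowest chi-square divided by its degrees of freedom was 4.67).

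Counts were scaled by TMM factors, filtered with filterByExpr by group, and tested in 1 edgeR quasi-likelihood model (robust, genotype group and sex, all 24 libraries; edgeR 4.0.16, limma 3.58.1, R 4.3.3), with Benjamini-Hochberg adjustment over 15300 genes and a threshold of 0.05. Each SE is the log2 fold change divided by the root of F. The 95% intervals use a normal multiple of the SE, so they are somewhat narrow beside the F test. Slc25a21 in cKO against the Cre control had an interval of -0.85 to -0.015, with an unadjusted p of 0.054 by edgeR. The steps were tested on simulated data. DESeq2 1.42.0, limma-voom, sva 3.50.0 and the other alternatives of the closing section were run beside it. CPM per kilobase used the smaller of the GENCODE exon union and the deposited length, in place of the deposited length alone as first planned, because the latter exceeded the genomic span of 1982 genes.

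Named carriers are those called, the 2 highest and 2 lowest log2 fold changes of each comparison, the 6 highest levels per kilobase, and Slc25a51, Slc25a4, Slc25a5 and Slc25a3. The values of 1 carrier are not reported here; it stays in the counts and medians over the family. Others given values for their role (among them Slc25a10, Slc25a16, Slc25a27 and Slc25a36), and Ucp2, Sfxn2 and Sfxn5, were chosen after their values were seen. The members, lists and role groups were chosen with earlier results of these data known. Counting intervals were not used, since the spread between mice sets the errors. Promoter windows are from RefSeq (GRCm38.p6).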

Additional observations from a re-analysis of the deposited data

Results flagged for a closer look

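Of 20 named carriers in 4 groups, 80 sets of 6 libraries were checked for a library far from the others of its group, and 3 were found; chance alone gives about 1 in 20 sets. Slc25a46 was at 93.1 CPM in Cre control replicate M1, against 109 to 116 CPM in the other 5 Cre control mice. Slc25a21 was at 1.04 CPM in the same library, against 1.46 to 1.67 CPM in the others. Slc25a5 was at 303 CPM in cKO+NDI1 replicate F3, against 326 to 337 CPM in the others of that group. Without Cre control M1 the log2 fold change of Slc25a46 in cKO against the Cre control was -0.29.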

How the results depend on the processing

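In cKO against the Cre control the count of all genes called was 745, and it was 1123 with DESeq2, 425 with no filter, 419 with counts thinned to the smallest library, 263 with the compared groups only, 38 in males only, 364 in females only and 3185 with 1 surrogate variable (504 to 914 leaving out 1 library). Carriers called there were 2, and 1 with no filter, 1 thinned, 0 with the compared groups only, 0 in males, 0 in females and 11 with the surrogate variable (2 to 3). In cKO+NDI1 against cKO, 32 genes became 106 with DESeq2, 21 unfiltered, 19 thinned, 13 with the compared groups only, 2 in males, 2 in females and 443 with the surrogate variable (10 to 42); carriers called were 0 in each setting tried. In cKO+NDI1 against the NDI1 control, 0 genes became 23 with DESeq2, 2 unfiltered, 1 in males and 53 with the surrogate variable (0 to 3), and carriers called were again 0 in each. In cKO+NDI1 against the Cre control, 191 genes became 503 with DESeq2, 87 unfiltered, 51 thinned, 14 in males, 2 in females and 1630 with the surrogate variable (26 to 279). Carriers called there were 1, and 2 with plain library totals, 3 with DESeq2, 0 unfiltered, 0 thinned, 0 with the compared groups only, 0 in males, 0 in females and 4 with the surrogate variable (0 to 2). In the NDI1 control against the Cre control, 1 gene became 77 with DESeq2, 3 with limma-voom, 2 without sex in the model, 2 in females and 292 with the surrogate variable (1 to 37), and 0 carriers became 1 with DESeq2 and 1 with the surrogate variable (0 to 1). The interaction had 0 genes, 12 with DESeq2 and 55 with the surrogate variable (0 to 4), and male against female 13 genes, 32 with DESeq2, 23 with the surrogate variable and 8 thinned (10 to 33). Fewer samples enter the fits of compared groups or of 1 sex, fewer counts the thinned fit and more genes the unfiltered one; the cause of the other shifts was not tested. The counts of all genes that moved furthest with 1 library left out were 26 in cKO+NDI1 against the Cre control and 10 in cKO+NDI1 against cKO, both without cKO+NDI1 M2, 37 in the NDI1 control against the Cre control without NDI1 control M3, 4 for the interaction without Cre control M1, and 33 for male against female without cKO M3.

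For single carriers, 42 differences with an unadjusted p under 0.05 were followed over 37 settings. Slc25a46 lost its call in cKO against the Cre control with no filter (adjusted p = 0.072), and 1 sign turned: Slc25a4 in male against female, at -0.0027 with the surrogate variable. Replicate numbers do not pair the mice by any label. Same-numbered mice had a median correlation of 0.110 (36 pairs, 19 over 0.1), against -0.040 for other numbers of the same sex. With a replicate block in place of sex, the count in cKO+NDI1 against cKO was 20 and in the NDI1 control against the Cre control 2; no carrier call changed. Members were the same 37 with plain library totals. Depth limits the scarce carriers: Slc25a21 had 5 to 29 counts a library.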
